A study of Mus musculus with 4 samples.

Results

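The collagen chains were taken as every gene in the deposited matrices whose symbol is Col, a type number, the letter a and a chain number, with nothing after it. The rule found 44 genes among 32285, and 44 of the 44 matched a gene of GENCODE M21 by Ensembl identifier and had at least 30 unique molecular identifiers (UMIs) in the cells kept. The data are 4 single-cell RNA libraries from the digits of wild-type FVB/NJ mice aged 8 weeks, with no transgene or drug in any group. One library came from unamputated digits at the level of the middle phalanx (P2), called homeostatic by the labels. The others came from digits amputated at that level, which the series describes as non-regenerative, and collected 12, 17 or 28 days post-amputation (dpa), when the labels call the tissue fibrosing. The tissue was dissected, broken up with the enzymes trypsin and collagenase I, freed of red cells by lysis, and sorted for live cells that kept propidium iodide out. Each group was 1 library of pooled animals, the number of which is not given in the sources used here, so no spread between animals can be had, no p-value is given, and each difference compares libraries.

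Collagens are secreted proteins of 3 chains wound into a triple helix. Fibrillar collagens (types I, II, III, V, XI, XXIV and XXVII) form the fibres of tendon, bone, dermis and scar, where type I, built from Col1a1 and Col1a2 chains, is the bulk protein and type III is the partner typical of young scar and loose skin. Type IV forms the sheet of basement membranes, type VI the beaded filaments around cells, type VII the anchoring fibrils under the epidermis, and types VIII and X hexagonal networks. The fibril-associated collagens (FACIT, for example types IX, XII and XIV) coat fibrils, the membrane-spanning collagens (XIII, XVII, XXIII, XXV) sit in the cell surface, and the multiplexins (XV, XVIII) lie at basement membranes. In a digit that scars, fibroblasts, tenocytes and bone-forming cells are known as the main producers.

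The level of a chain is given as CPM, the scaled count in which the UMIs of the gene summed over the cells of a class in 1 library, are divided by all UMIs of that class and library and multiplied by 1e+06. The chemistry tags the 3′ end of a transcript, about 1 UMI per molecule whatever its length, so levels of different chains are set side by side on that scale. Unless stated otherwise, 4 values in a row are those of the unamputated, 12, 17 and 28 dpa libraries in that order, and 3 levels leave out 12 dpa. Where log2 ratios are listed, 3 in a row are those at 12, 17 and 28 dpa, and 2 in a row those at 17 and 28 dpa, unless a time is named. Differences are log2 ratios to the unamputated library after adding 1 CPM to both levels, which understates the change of low genes, and "at least 2-fold" means a log2 ratio of 1 or more, or of -1 or less. Intervals are 95% exact intervals of the counts and cover counting error only. A class needed 50 cells in a library, and a gene a mean of at least 10 CPM over the libraries, to be compared.

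The libraries held 16045, 8813, 10514 and 15253 barcodes, of which 10189, 6471, 7872 and 9999 cells were kept, 34531 in all, with a median of 11550, 9533, 8507.5 and 6644 UMIs per cell. The labels describe male and female animals pooled in each library. Cells with a sex call were all female in the 12 dpa library, and male in the other 3 except for 1 cell of the unamputated library, so sex and time cannot be told apart for 12 dpa. Pairs of libraries shared 19 to 87 barcodes, at most 0.570% of the smaller library. Cell classes were named from marker lists without any collagen gene, and 5 of 27 clusters stayed unnamed. Collagen RNA free in the suspension was gauged from neutrophil-like, T or NK-like and B-lineage-like cells, which held 632.8, 3156, 1001 and 1858 CPM of collagen, or 0.759%, 4.12%, 1.44% and 4.15% of the level in fibroblast-like, tenocyte-like and osteoblast-like cells. These were 1526, 435, 718 and 355 cells, and their mix differed. B-lineage-like cells numbered 202, 0, 142 and 95, and a neutrophil-like cluster led by Camp and Ngp 418, 0, 155 and 0. Median depth of neutrophil-like cells was 3098, 1762, 2491 and 1422 UMIs. The part of mix and depth in the gauge was not tested, and each background count below rests on it.

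The start regions of the chains are shown first for the main basement membrane pair, whose levels are set against each other below, and for the 2 leading fibrillar chains that have a window. The windows are RefSeq promoter windows on GRCm38.p6, 250 bases before to 50 after the annotated start, and 35 of the 44 chains had one. Col4a1 (chr8:11312777-11313076, minus strand) and Col4a2 (chr8:11312555-11312854, plus strand) lie on opposite strands, with starts 21 bases apart. The Col4a1 start is at chr8:11312826 and the Col4a2 start at chr8:11312805, so their annotated 5′ ends overlap. The 78 bases that both windows share are in capitals, chr8:11312777-11312854, and 73.1% of them are G or C.
Col4a1: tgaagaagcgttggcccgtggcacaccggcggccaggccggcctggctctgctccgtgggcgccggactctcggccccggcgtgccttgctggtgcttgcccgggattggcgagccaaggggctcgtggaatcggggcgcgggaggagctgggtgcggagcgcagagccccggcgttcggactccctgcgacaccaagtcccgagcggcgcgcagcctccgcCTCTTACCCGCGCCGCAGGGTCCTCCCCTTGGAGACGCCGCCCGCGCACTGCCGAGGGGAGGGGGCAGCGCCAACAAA
Col4a2: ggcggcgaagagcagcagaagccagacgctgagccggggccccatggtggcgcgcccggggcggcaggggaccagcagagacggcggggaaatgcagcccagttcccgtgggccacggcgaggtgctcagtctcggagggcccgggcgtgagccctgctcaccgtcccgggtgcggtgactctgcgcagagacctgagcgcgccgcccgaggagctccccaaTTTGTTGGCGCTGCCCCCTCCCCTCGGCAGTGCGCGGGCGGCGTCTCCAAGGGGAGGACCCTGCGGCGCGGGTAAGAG
The letters CCAAT and TATAAA were searched on both strands, and in the next pair the matches are in capitals (ATTGG is CCAAT on the other strand). Col1a2 (chr6:4505368-4505667, plus strand) held CCAAT 109 bases before the start and, on the other strand, 0 bases from it. Col3a1 (chr1:45311288-45311587, plus strand) held TATAAA 117 bases before its start.
Col1a2: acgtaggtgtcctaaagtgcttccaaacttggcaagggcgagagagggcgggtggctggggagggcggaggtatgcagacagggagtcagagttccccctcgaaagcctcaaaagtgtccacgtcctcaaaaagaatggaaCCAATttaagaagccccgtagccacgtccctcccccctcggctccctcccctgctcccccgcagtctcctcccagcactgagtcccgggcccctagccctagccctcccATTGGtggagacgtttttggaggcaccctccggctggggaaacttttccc
Col3a1: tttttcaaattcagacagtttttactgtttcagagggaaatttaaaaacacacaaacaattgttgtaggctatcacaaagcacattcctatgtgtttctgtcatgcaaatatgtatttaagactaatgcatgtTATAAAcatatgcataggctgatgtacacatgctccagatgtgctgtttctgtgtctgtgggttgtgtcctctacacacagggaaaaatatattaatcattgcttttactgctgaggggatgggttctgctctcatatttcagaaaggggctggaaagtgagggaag
CCAAT was found in the windows of 13 of the 35 chains (37.1%) and in 37.4% of the 32851 windows in the table. TATAAA was found for 5 of the 35 (14.3%), namely Col3a1, Col10a1, Col11a2, Col13a1 and Col17a1, and in 13.6% of all windows. Both shares were close to those of all windows.

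Collagen made up 2.78%, 3.95%, 3.28% and 1.94% of the UMIs of all cells kept, highest at 12 dpa and lowest at 28 dpa. Of 10797584 collagen UMIs in all, 40.9% lay in tenocyte-like, 30.3% in fibroblast-like and 14.0% in osteoblast-like cells. The source moved between libraries: tenocyte-like cells held 41.3%, 74.3%, 15.3% and 18.3% of the collagen UMIs of their library, and fibroblast-like cells 24.9%, 9.54%, 47.5% and 55%. Osteoblast-like cells held 15.7%, 1.80%, 26.4% and 12.6%. These shares follow both the number of cells caught and the collagen per cell. Tenocyte-like cells numbered 572, 1527, 304 and 397 (5.61%, 23.6%, 3.86% and 3.97% of cells), fibroblast-like cells 632, 269, 1275 and 1941 (6.20%, 4.16%, 16.2% and 19.4%), and osteoblast-like cells 419, 37, 762 and 525. The share of cells that a digestion and a live sort release was not tested.

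Within a class the share is free of how many cells of it were caught. Tenocyte-like cells had the highest collagen share of the classes compared in 3 of the 4 libraries, at 10.0%, 7.71%, 7.2% and 6.32% of their UMIs. Fibroblast-like cells had 7.14%, 7.16%, 6.69% and 3.96%, so that the 28 dpa library stood apart from the other 3. Osteoblast-like cells had 7.09%, 7.26% and 5.28%, just above tenocyte-like cells at 17 dpa, with too few cells at 12 dpa. Pericyte-like cells had 2.30%, 2.42%, 1.72% and 1.63%, and Schwann-like cells 2.30%, 1.94%, 1.92% and 2.20%. Smooth muscle-like cells had 1.25%, 1.19%, 0.778% and 0.578%, and vascular endothelial-like cells 0.666%, 0.752%, 0.516% and 0.419%. In 6 of these 7 classes the 28 dpa library was the lowest, the exception being Schwann-like cells.

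**Figure D1:**
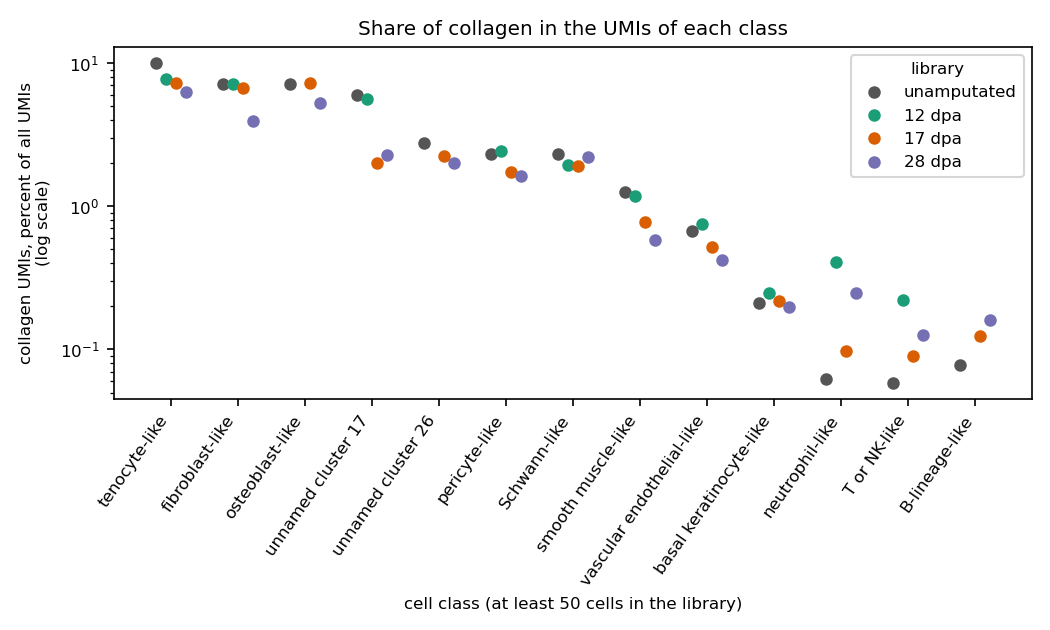
Collagen UMIs as a percent of all UMIs (log scale) for each class and library with at least 50 cells, 1 point per library. Tenocyte-like cells run from 10.0% to 6.32%, and the neutrophil-like, T or NK-like and B-lineage-like cells at the right show the level of free RNA.

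The chains were spread unequally over the classes. Col28a1, a collagen of peripheral nerve, had 94.8% of its 9910 UMIs in Schwann-like cells, and 85.3% or more in each library. Col17a1, the hemidesmosome collagen, had 74.1% of 38283 in basal keratinocyte-like cells and 72.5% or more in each library, although the looser filter on cells gave 40.6%. These pooled shares depend on how many cells of each class a library caught, and for many chains the leading class changed between libraries.

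Over all libraries tenocyte-like cells led Col11a1 (69.1%), Col24a1 (57.8%), Col8a2 (57.3%), Col12a1 (56.7%) and Col7a1 (50.1%). At 17 dpa osteoblast-like cells led the first 4 of these, with 51.4% of Col11a1, 40.1% of Col24a1, 52.0% of Col8a2 and 49.6% of Col12a1. At 28 dpa basal keratinocyte-like cells led Col7a1 with 56.8%. Naming each cell singly put 22.9% of Col7a1, 39.4% of Col12a1 and 46.8% of Col8a2 in tenocyte-like cells. Col14a1, a FACIT of dermis and tendon, had 68.5% of its UMIs in fibroblast-like cells, but 58.9% in tenocyte-like cells at 12 dpa. Col6a6 had 58.9% of only 769 UMIs in fibroblast-like cells. Vascular endothelial-like cells led Col13a1 (58.8%) and Col15a1 (54.0%) over all libraries. By library they led Col13a1 in the unamputated (69.2%) and 12 dpa (93.0%) ones, while osteoblast-like cells led it at 17 dpa (74.3%) and 28 dpa (60.1%). They held 66.8%, 59.2%, 34.3% and 23.4% of Col15a1, and at 28 dpa fibroblast-like cells led it with 33.6%. Over all libraries Col1a1 (48.5%) and Col1a2 (45.6%) were led by tenocyte-like cells and Col3a1 (47.2%) by fibroblast-like cells. Tenocyte-like cells led Col1a1 in the unamputated (49.4%) and 12 dpa (79.9%) libraries, and fibroblast-like cells at 17 dpa (39.9%) and 28 dpa (44.8%), and the leading class of Col1a2 was the same in each library. For Col3a1 fibroblast-like cells led with 39.6%, 65.4% and 74.8% in the unamputated, 17 and 28 dpa libraries, and tenocyte-like cells with 72.9% at 12 dpa.

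A chain was counted as above background in a class when its level was more than 3 times the free-RNA level of the same library (or the floor of 3 counts there), in every library compared, and its mean reached 10 CPM. By that count tenocyte-like and osteoblast-like cells had 21 chains each, Schwann-like cells 20, fibroblast-like cells 18, pericyte-like cells 14 and smooth muscle-like cells 13. Basal keratinocyte-like and lymphatic endothelial-like cells had 6 each, vascular endothelial-like cells 5 and suprabasal keratinocyte-like cells 4. Col4a1, Col4a2, Col8a1, Col18a1 and Col27a1 passed in 7 classes each. Col28a1, Col20a1, Col4a4, Col11a2 and Col22a1 passed in 1 class each, the first 3 in Schwann-like cells and the other two in osteoblast-like cells. In macrophage-like, monocyte-like and dendritic-like cells, Col1a1, Col1a2 and Col3a1 were the leading chains, at 56.2 to 313 CPM. Each of these values was below the free-RNA level of its library, and no expression is read from them.

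**Figure D2:**
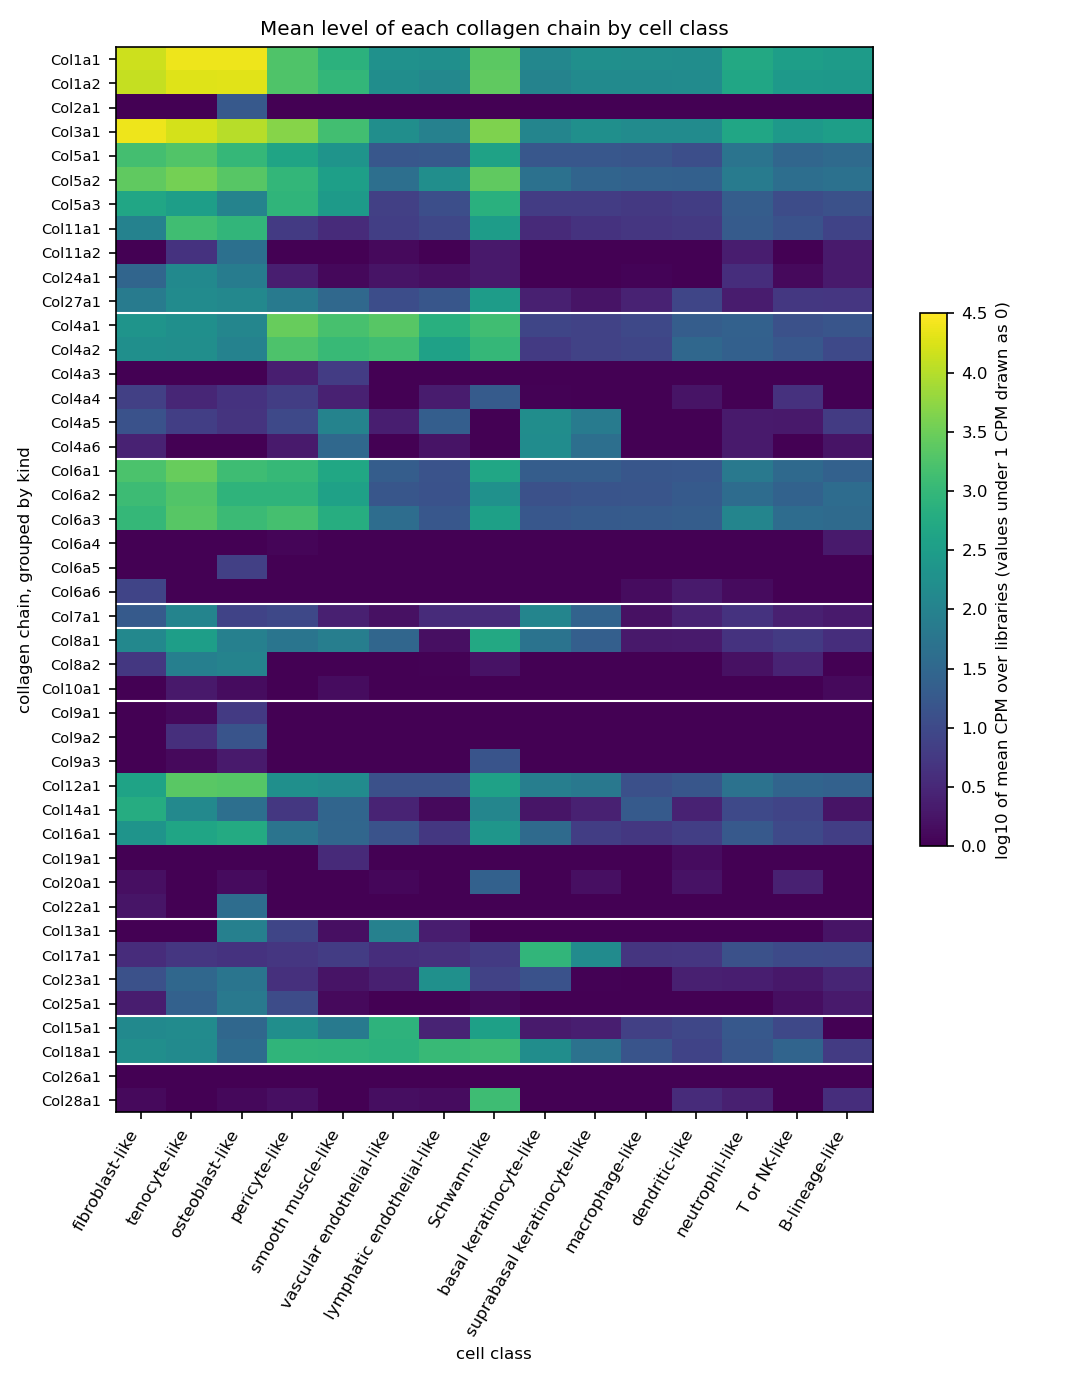
Mean level of each chain over the libraries (log10 of CPM, colour) in the named classes, with white lines between kinds of collagen. Type I and III chains are highest in the 3 classes at the left, Col5a3 in pericyte-like cells (878 CPM) and Col27a1 in Schwann-like cells (304 CPM), Col4a1 and Col4a2 in pericyte-like and vascular endothelial-like cells, and Col28a1 and Col17a1 stand out in 1 class or a pair of related classes.

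In fibroblast-like cells collagen as a whole was level until 17 dpa and lower at 28 dpa. The sum of all chains was 71422, 71627, 66881 and 39552 CPM. The log2 ratio to unamputated at 12 dpa was 0.0041, with an interval from -0.0020 to 0.010. It was -0.095 (-0.099 to -0.091) at 17 dpa and -0.85 at 28 dpa (interval -0.86 to -0.85). Of the 44 chains, 23 reached the minimum of 10 CPM. At 12 dpa 1 of them was at least 2-fold higher and 1 lower, beside 0.598% of 8523 genes higher and 4.58% lower. At 17 dpa 0 were higher and 3 lower, beside 0.399% and 1.17% of genes. At 28 dpa 0 were higher and 12 lower, beside 2.02% and 5.54% of genes, and 23 of the 23 log2 ratios were below 0. The median log2 ratio of the chains was -0.11, -0.35 and -1.0 at 12, 17 and 28 dpa, beside -0.20, -0.05 and -0.12 over all genes compared. Of the 23 chains, 18 were above the free-RNA background in every library by the count given earlier, and of these 0 were past 2-fold at 12 dpa, 1 was lower at 17 dpa (Col27a1) and 7 at 28 dpa. The other 5 were Col4a5, Col7a1, Col11a1, Col23a1 and Col24a1, whose values below carry that limit. Col4a5 and Col7a1 reached 10 CPM only through the library where each was highest, with means of 9.68 and 9.02 CPM without it.

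The 3 main fibrillar chains did not shift alike. Col3a1, the single chain of type III, was at 27190, 25111, 28851 and 17094 CPM. Col1a1 was at 17327, 18601, 13903 and 7029 CPM, and Col1a2 at 13988, 15847, 13751 and 8039 CPM. Each was lowest at 28 dpa, but the log2 ratio there was -1.30 (-1.31 to -1.29) for Col1a1, -0.80 (-0.81 to -0.79) for Col1a2 and -0.67 (-0.68 to -0.66) for Col3a1. The 2-fold call of Col1a1 did not hold in cluster 15, 1 of the 2 clusters that make up these cells, where the ratio was -0.68, against -1.53 in the other, cluster 18. Of the collagen UMIs of these cells, Col1a1 was 24.3%, 26%, 20.8% and 17.8%. Col3a1 was 38.1%, 35.1%, 43.1% and 43.2%, and Col1a2 19.6%, 22.1%, 20.6% and 20.3%. The ratio of Col3a1 to Col1a1 UMIs was 1.57, 1.35, 2.08 and 2.43.

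The minor fibrillar chains, which set the diameter of fibrils or nucleate them, spanned a wide range. Col5a2 was at 3066, 2439, 2644 and 1904 CPM and Col5a1 at 1720, 1629, 1478 and 937 CPM, neither past 2-fold at 28 dpa (log2 ratios -0.69 and -0.88). Col5a3 was at 667, 573, 342 and 227 CPM, with a log2 ratio of -1.55 (-1.61 to -1.5) at 28 dpa. Type V thus held 2 chains short of the 2-fold line and 1 past it. Col11a1, a chain of cartilage and developing tendon, was at 119, 162, 89.2 and 22.2 CPM, the highest at 12 dpa and the lowest at 28 dpa, where its log2 ratio was -2.38 (-2.58 to -2.28). Col24a1 was at 44.7, 49.4, 18 and 4.92 CPM, with log2 ratios of -1.26 at 17 dpa and -2.95 (-3.50 to -2.88) at 28 dpa. Col27a1 was at 111, 101, 48.7 and 34.0 CPM, with -1.17 at 17 dpa and -1.68 at 28 dpa. These 3 chains were lower in both later libraries than in both earlier ones.

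The share of cells with a Col11a1 UMI moved the same way once cells were thinned to 2000 UMIs. It was 17.5%, 25.8%, 13.6% and 4.70% in fibroblast-like cells (55.2%, 67.7%, 45.7% and 14.5% before thinning, at median depths of 20527, 13931, 13433 and 9494 UMIs). In tenocyte-like cells it was 80.5%, 77.5%, 68.0% and 67.3% after thinning. In neutrophil-like cells, which should lack the gene, it was 2.22%, 9.78%, 2.25% and 18.2%, the last from 11 cells deep enough to be thinned. At 28 dpa the thinned share in fibroblast-like cells is thus not above that of neutrophil-like cells, and no expression per cell is read from it. For Col24a1 the thinned share was 8.43%, 8.58%, 3.47% and 0.835% in fibroblast-like cells against at most 1.09% in neutrophil-like cells. The depth of these cells was lowest at 28 dpa, and its part in the lower CPM was not tested.

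Of the 3 type VI chains that reached the minimum, which form the filament around cells, 1 was past 2-fold at 28 dpa and all 3 were below the unamputated level. Col6a1 was at 1961, 1927, 1550 and 1373 CPM and Col6a2 at 1343, 1547, 1179 and 856 CPM, with log2 ratios of -0.51 and -0.65 at 28 dpa. Col6a3 was at 1303, 1293, 834 and 607 CPM, with -1.10 (-1.13 to -1.07). The ratio of Col6a1 to Col6a3 UMIs was 1.5, 1.49, 1.86 and 2.26. Among type IV chains, Col4a1 was at 282, 217.2, 222 and 117 CPM and Col4a2 at 214, 192, 193 and 107 CPM. At 28 dpa Col4a1 was past the 2-fold line at -1.27 and Col4a2 just short of it at -0.99 (-1.07 to -0.91). Col4a5, an X-linked chain, was at 25.2, 4.11, 18 and 6.93 CPM, with log2 ratios of -2.36 (-3.44 to -1.90) at 12 dpa from 16 UMIs and -1.73 at 28 dpa. At 12 dpa this goes with the change of sex between the libraries, and its part was not tested.

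Col7a1, the anchoring fibril chain, is given as values only, since the library where it was highest carried it over the minimum and it did not clear the free-RNA background in every library. It was at 15.6, 49.6, 6.25 and 5.25 CPM, with log2 ratios of 1.61 (1.38 to 1.96), -1.19 (-1.66 to -0.98) and -1.41 (-1.91 to -1.23). The ratio at 28 dpa was 0.21 at Leiden resolution 2, and in cluster 15, a fibroblast-like cluster described below, it was 0.49 at 17 dpa and 0.060 at 28 dpa. No chain compared was at least 2-fold higher at 12 dpa at Leiden resolution 2, under a stricter cell filter, when cells were named singly or when tenocyte-like cells were pooled in (0 of those compared each time). Col7a1 at 12 dpa was at 0.27 under the stricter filter. At Leiden resolution 2 Col7a1 was still at 1.49 and left the count through the minimum of 10 CPM, not through its fold. Col8a1, of the network collagens, was at 157, 94.6, 108 and 139 CPM, within 2-fold at each time.

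Of the 3 FACIT chains that reached the minimum in fibroblast-like cells, 1 was past 2-fold at 28 dpa. Col14a1 was at 673, 556, 811 and 428 CPM and Col16a1 at 218, 299, 205 and 148 CPM, neither past 2-fold. Col12a1, which bridges fibrils under load, was at 477, 611, 284 and 238 CPM, with a log2 ratio of -1.0 (-1.06 to -0.95) at 28 dpa, on the line. Of the multiplexins, Col18a1, the precursor of endostatin, was at 256, 179, 142 and 90.0 CPM, with -1.5 (-1.59 to -1.43) at 28 dpa. Col15a1 was at 182, 105, 154 and 111 CPM, with -0.79, -0.24 and -0.71. The membrane-spanning Col23a1 was at 20.7, 14.4, 10.3 and 6.11 CPM, with -1.61 at 28 dpa. Of the 12 chains past 2-fold at 28 dpa, 5 were fibrillar, 2 of type IV and 1 each of types VI, VII, XII, XVIII and XXIII. Of the 7 above background, 3 were fibrillar (Col1a1, Col5a3 and Col27a1), beside Col4a1, Col6a3, Col12a1 and Col18a1.

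**Figure D3:**
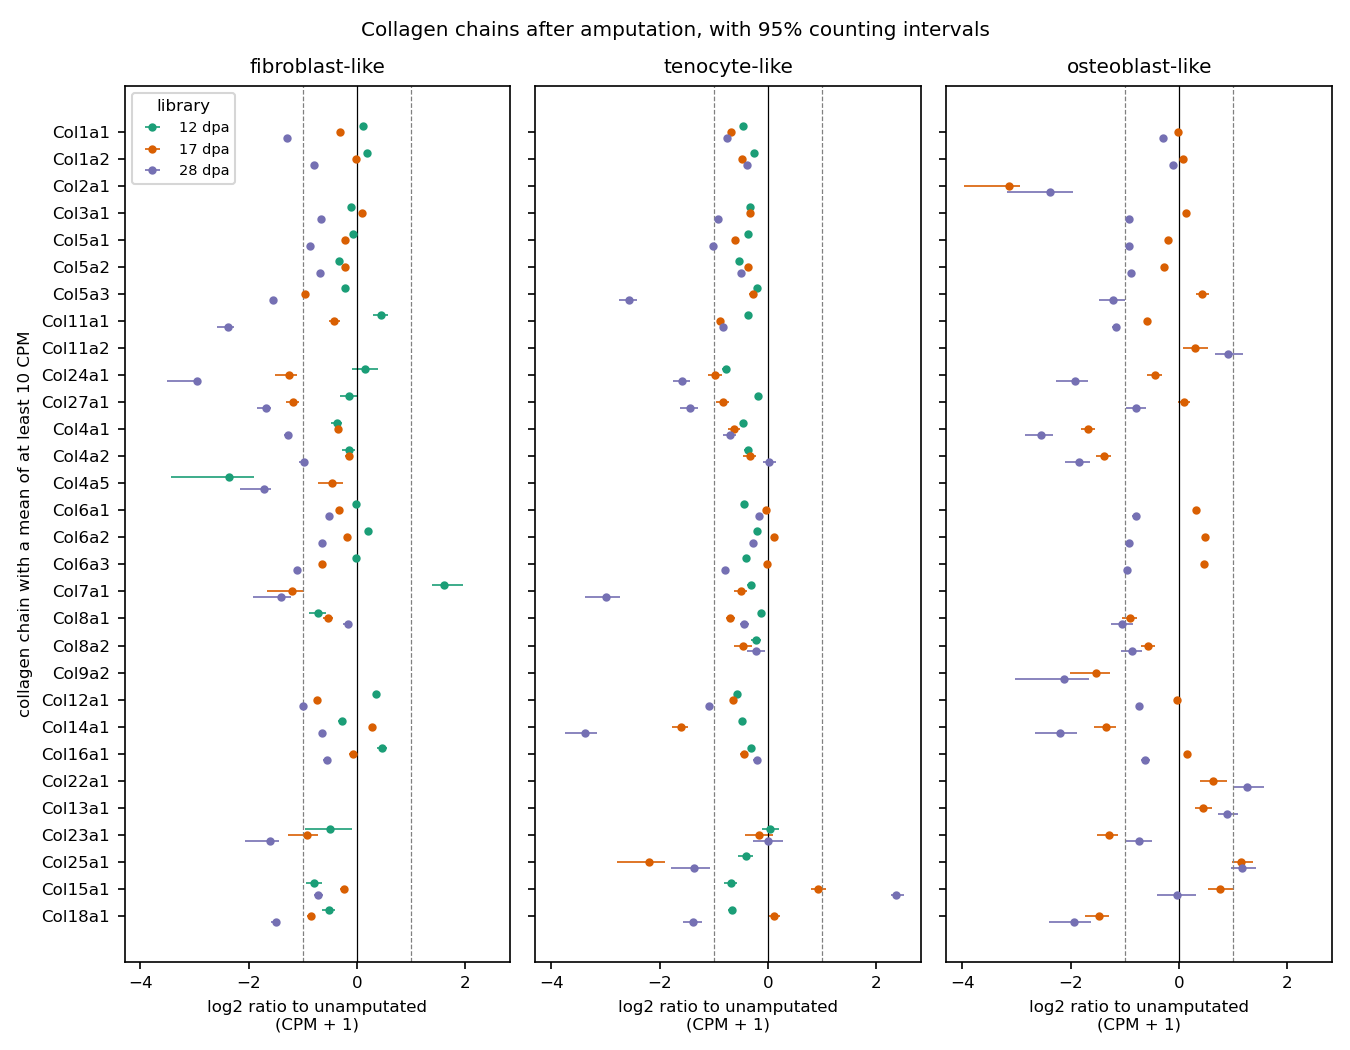
Log2 ratio of CPM + 1 to the unamputated library for each chain with a mean of at least 10 CPM, in fibroblast-like, tenocyte-like and osteoblast-like cells. Points are libraries, horizontal lines 95% counting intervals without the added 1 CPM, and dashed lines mark 2-fold; at 28 dpa the 23 points of fibroblast-like cells lie below 0.

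Fibroblast-like cells were 2 clusters, and the size of the difference depended on which was read. Cluster 18, led by Ccn3, Clec3b, Mfap5 and Pi16 (377, 247, 712 and 1396 cells), had total collagen log2 ratios of -0.10, -0.32 and -1.03, with 13 of 21 chains at least 2-fold lower at 28 dpa, beside 5.06% of 8444 genes. Cluster 15, led by Gdf10, Apod, Igf1 and C4b (255, 22, 563 and 545 cells), had 0.32 at 17 dpa and -0.35 at 28 dpa, with 9 of 24 chains lower at 28 dpa, beside 6.36% of 8651 genes. Both were lower at 28 dpa, and they lay on different sides of 0 at 17 dpa. Of the chains past 2-fold at 28 dpa in the whole class, Col1a1 (-0.68), Col4a1 (-0.45), Col5a3 (-0.82), Col6a3 (-0.57), Col7a1 (0.060) and Col12a1 (-0.72) were not past it in cluster 15. At Leiden resolution 2, Col6a3 (-0.51), Col7a1 (0.21) and Col12a1 (-0.086) were not past it either. Of the 7 chains past 2-fold and above background in the class, Col18a1 (-1.265) and Col27a1 (-1.776) alone were past 2-fold in cluster 15. The counts of chains in clusters 18 and 15 were not screened for background. Another 2 clusters scored best as fibroblast-like and stayed unnamed, because no marker was among their leading genes. In cluster 17, led by Hs6st3, Kif26b and Itgbl1 (151, 306, 259 and 173 cells), the ratios were -0.10, -1.58 and -1.39. In cluster 26, led by Cilp and Itih5 (81, 31, 358 and 263 cells), they were -0.31 at 17 dpa and -0.46 at 28 dpa. In cluster 17 Col1a1 was at 16574, 17197, 3901 and 4823 CPM, so the 2 later libraries stood well below the 2 earlier ones.

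The marker lists were also summed within fibroblast-like cells, to see which moved with the collagens. The summed level of their own 10 markers was 15710, 15160, 22150 and 23450 CPM, with 0 markers at 0. The osteoblast list was at 264, 123, 140 and 119 CPM, the tenocyte list at 260, 341, 235 and 255 CPM and the pericyte list at 157, 148, 232 and 193 CPM. The list of suprabasal keratinocytes was at 185, 249, 296 and 704 CPM and that of joint lining at 510, 548, 545 and 929 CPM, both highest at 28 dpa. Their part in the lower collagen was not tested.

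In tenocyte-like cells, named from genes such as Scx, Tnmd, Fmod and Thbs4, collagen was lower in each library after amputation. The sum of all chains was 100120, 77079, 72044 and 63246 CPM, with log2 ratios of -0.38, -0.47 and -0.66. Of 24 chains compared, 0 were past 2-fold at 12 dpa, beside 0.287% of 8358 genes higher and 1.04% lower. At 17 dpa 0 were higher and 2 lower, beside 1.41% and 1.96%. At 28 dpa 1 was higher and 9 lower, beside 3.52% and 6.46%. The median log2 ratio of the chains was -0.37, -0.47 and -0.78, beside -0.16, -0.06 and -0.10 over all genes. Of the 24 chains, 21 were above background in every library, and of these 0 were higher and 7 lower at 28 dpa. The exceptions among the calls were Col14a1, Col15a1 and Col18a1.

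The make-up of the tenocyte-like cells was not the same in each library. Leiden resolution 2 gave 2 tenocyte-like clusters, one led by Fmod and Matn4 (232, 660, 127 and 375 cells) and the other by C1qtnf3, Tnn and Scx (247, 723, 132 and 14 cells), so that at 28 dpa nearly all lay in the first. Another 96, 154, 47 and 22 of the tenocyte-like cells lay in neither, of which 75, 99, 2 and 1 were in an unnamed cluster led by Kif26b and Hs6st3. Within the first cluster the total collagen log2 ratios were -0.33, -0.36 and -0.69, and at 28 dpa 1 chain of 24 was at least 2-fold higher and 5 lower, beside 4.52% and 8.36% of 8362 genes. In the second they were -0.44 at 12 dpa and -0.53 at 17 dpa, with too few cells at 28 dpa. At 17 dpa 6 of 24 chains were at least 2-fold lower in the second, beside 2.88% of 8194 genes. They were Col8a1 (-1.01), Col8a2 (-1.52), Col11a1 (-1.71), Col14a1 (-1.51), Col24a1 (-1.32) and Col25a1 (-1.08), against -0.69, -0.46, -0.89, -1.60, -0.97 and -2.20 in the whole class. In the first, Col14a1 (-1.62) and Col25a1 (-1.48) were lower at 17 dpa and Col15a1 (1.09) was higher, but Col25a1 reached the minimum there only through the 28 dpa library, with 9.12 CPM on average without it.

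The type I chains of tenocyte-like cells moved within 2-fold. Col1a1 was at 32517, 23621, 20252 and 19261 CPM, Col1a2 at 23438, 19558, 16724 and 17821 CPM and Col3a1 at 21167, 16763, 16810 and 11178 CPM. Each was highest in the unamputated library. Col12a1 was at 3217, 2164, 2056 and 1523 CPM, with a log2 ratio of -1.08 at 28 dpa, and Col11a1 at 1808, 1395, 973 and 1021 CPM, with -0.82. The larger differences lay in chains of lower level. Col14a1 was at 244, 175, 79.7 and 22.5 CPM, with -1.60 (-1.76 to -1.47) at 17 dpa and -3.38 (-3.74 to -3.15) at 28 dpa. Col7a1 was at 163, 131, 115 and 19.7 CPM, with -2.99 at 28 dpa, and Col5a3 at 464, 403, 385 and 77.6 CPM, with -2.57. Both were past the 2-fold line at 28 dpa alone. In the cluster led by Fmod and Matn4 the 28 dpa ratios were smaller, at -1.04 for Col7a1 (41.6, 53.2, 41.9 and 19.7 CPM) and -1.42 for Col5a3 (192, 180.4, 129 and 71.4 CPM). That of Col14a1 was -3.43 there, as large as in the whole class. In the cells that lay in neither finer cluster, Col7a1 was at 600.2 CPM in the unamputated and 465 CPM in the 12 dpa library, above both clusters, and Col25a1 at 164 and 107 CPM. At 17 dpa the ratio of Col7a1 was -0.50 in the whole class, 0.011 in the first finer cluster and 0.54 in the second.

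The remaining lower chains at 28 dpa were Col5a1 (log2 ratio -1.01), Col18a1 (-1.37), Col24a1 (-1.58), Col25a1 (-1.36) and Col27a1 (-1.44), and Col25a1 was also lower at 17 dpa (-2.20, from 46 UMIs). In the cluster led by Fmod and Matn4, Col24a1 (-1.58) and Col27a1 (-1.09) were past 2-fold at 28 dpa, Col5a1 (-0.76), Col12a1 (-0.92) and Col18a1 (-0.86) were not, and Col25a1 lay on the other side of 0 (0.50). Col15a1 went the other way. It was at 67.5, 41.9, 129 and 354 CPM, with log2 ratios of -0.68, 0.92 and 2.37 (2.28 to 2.50). It was 2.53 in the cluster led by Fmod and Matn4. The share of tenocyte-like cells with a Col15a1 UMI, thinned to 2000 UMIs, was 9.32%, 6.77%, 18.7% and 40.8% (42.5%, 29.2%, 52.6% and 75.6% unthinned). In neutrophil-like cells it was 1.11%, 5.44%, 2.89% and 0%, the last again from 11 cells.

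The marker content of tenocyte-like cells also differed at 28 dpa. Their own 8 markers summed to 1752, 1738, 2282 and 4520 CPM, the fibroblast list to 6752, 6040, 8288 and 14280 CPM, and the osteoblast list to 537, 397, 814 and 3594 CPM. The chondrocyte list was at 376, 296, 386 and 859 CPM, and the smooth muscle list at 696, 1106, 474 and 173 CPM. The part of these shifts in the collagen differences was not tested.

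In osteoblast-like cells the type I chains stayed within 2-fold, Col4a1 and Col4a2 were lower at both times, and Col25a1 and Col22a1 were higher at 28 dpa. The 12 dpa library had 37 such cells and was left out. The sum of all chains was 70886, 72579 and 52846 CPM, with log2 ratios of 0.034 at 17 dpa and -0.42 at 28 dpa. Of 28 chains, 1 was at least 2-fold higher and 7 lower at 17 dpa, beside 1.14% of 8751 genes higher and 1.61% lower. At 28 dpa 2 were higher and 10 lower, beside 2.13% and 4.57%. The median log2 ratio of the chains was -0.02 and -0.90, beside -0.11 and -0.22 over all genes. At 17 dpa 13 of the 28 log2 ratios were above 0, and at 28 dpa 4. Of the chains, 21 were above background in every library, and of these 1 was higher and 1 lower at 17 dpa, and 2 higher and 3 lower at 28 dpa. Col2a1, Col4a1, Col4a2, Col5a3, Col9a2, Col14a1 and Col18a1 were not among the 21, and Col2a1 and Col9a2 reached 10 CPM only through the unamputated library.

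Col1a1 was at 25671, 25470 and 20839 CPM and Col1a2 at 19955, 21135 and 18412 CPM, with log2 ratios of -0.30 and -0.12 at 28 dpa. Col3a1 was at 11998, 13114 and 6342 CPM, with -0.92. Type III was thus lower at 28 dpa by more than type I in these cells, the reverse of the order in fibroblast-like cells. Tenocyte-like cells had the same order as osteoblast-like cells at 28 dpa, with -0.92 for Col3a1, -0.76 for Col1a1 and -0.40 for Col1a2. In osteoblast-like cells the ratio of Col3a1 to Col1a1 UMIs was 0.467, 0.515 and 0.304. Col4a1 was at 234, 72.8 and 39.1 CPM, with -1.67 and -2.55 (-2.84 to -2.33), and Col4a2 at 180, 68.7 and 49.4 CPM, with -1.38 and -1.84. Col18a1 was at 71.6, 25.0 and 17.9 CPM, with -1.48 and -1.94. The smooth muscle list, a source of type IV chains, was at 191, 41.2 and 49.7 CPM in these cells and the pericyte list at 309, 314 and 260 CPM, and their part was not tested.

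Col25a1, which spans the membrane, and Col22a1 were higher in osteoblast-like cells after amputation. Col25a1 stood at 36.1, 81.6 and 82.6 CPM, with log2 ratios of 1.15 (0.98 to 1.37) and 1.17 (0.96 to 1.43), and Col22a1, a FACIT of tissue junctions, at 24.8, 38.8 and 60.6 CPM, with 0.62 and 1.25 (1.01 to 1.57). Few cells carried much of this RNA. In these libraries 14, 22 and 16 cells of any class held 70.1%, 70.9% and 58% of the Col22a1 UMIs. For Col25a1 78, 54 and 23 cells held 73.8%, 73.7% and 53.4%. The counting intervals do not cover the spread between cells. Col13a1 was at 64.6, 88.2 and 121 CPM and Col11a2 at 33.9, 41.9 and 64.5 CPM, both short of 2-fold with 0.89 and 0.91 at 28 dpa. The membrane-spanning Col23a1 did not share this, at 84.0, 33.7 and 50.2 CPM, with -1.29 at 17 dpa. The other chains at least 2-fold lower were Col14a1 (-1.34 and -2.19), Col2a1 and Col9a2 at both times, and Col5a3 (-1.21), Col8a1 (-1.04), Col11a1 (-1.17) and Col24a1 (-1.93) at 28 dpa. The summed level of the 10 osteoblast markers was 9324, 24970 and 31110 CPM, so the cells of the 2 later libraries carried more of their own markers.

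Col2a1 rested on few cells. Col2a1, the main chain of cartilage, was at 42.0, 3.90 and 7.26 CPM in osteoblast-like cells, but 4 of the 419 unamputated cells held 346 of its 356 UMIs there. In the 12 dpa library 2 cells of that cluster held 1097 UMIs, of 1119 in the whole library. Over all cells 1 cell held 46.1% of 1620 UMIs. Naming each cell singly by its markers put 88.5% of the Col2a1 UMIs in chondrocyte-like cells. Its ratios are therefore counts of a handful of cells. Col9a2, its FACIT partner, had 55.8% of 715 UMIs in osteoblast-like cells, at 28.8, 9.32 and 5.86 CPM there, and Col9a1 61.8% of 293. Under other filters and namings of cells these shares fell as low as 10.5% and 26.7%. The UMIs of Col9a2 were in 404 cells and those of Col9a1 in 210. Col11a2, which pairs with Col11a1 in cartilage, had 74.8% of 1326 UMIs in osteoblast-like cells, where 60 of 1743 cells held 788 of 992 UMIs. Col10a1, the marker of hypertrophic cartilage, had 194 UMIs in all.

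Pericyte-like and smooth muscle-like cells were led by type IV and type III chains. In smooth muscle-like cells the type III chain was not above background in every library. In pericyte-like cells (882, 478, 730 and 961 cells) Col3a1 was at 5358, 4952, 4554 and 4476 CPM, Col4a1 at 3646, 3375, 2418 and 2006 CPM and Col4a2 at 2159, 1920, 1540 and 1365 CPM. The type IV pair was lower in both later libraries than in both earlier ones. Of 18 chains, 1, 1 and 2 were at least 2-fold lower at 12, 17 and 28 dpa, beside 3.12%, 0.564% and 2.49% of 8858 genes, and 0 were higher, beside 0.948%, 0.564% and 1.28%. The lower ones were Col25a1 (-1.85 at 12 dpa and -1.52 at 28 dpa), which was not above background in every library and averaged 8.37 CPM without its highest library, and Col15a1, at 190, 329, 85.3 and 75.5 CPM, with -1.15 at 17 dpa and -1.32 at 28 dpa.

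Smooth muscle-like cells (347, 95, 362 and 595 cells) showed the widest lowering among the classes of the vessel wall. The sum of all chains was 12490, 11857, 7783 and 5780 CPM, with log2 ratios of -0.075, -0.68 and -1.11. Of 20 chains, 1, 4 and 10 were at least 2-fold lower, beside 4.88%, 1.32% and 3.82% of 8591 genes, and 0 were higher, beside 0.943%, 0.629% and 1.47%. Col4a1 was at 2255, 1904, 1179 and 795 CPM, with -1.5 at 28 dpa, and Col4a2 at 1462, 1197, 1014 and 712 CPM, with -1.04. Col3a1 was at 1686, 1798, 1051 and 851 CPM, against a free-RNA level of 149.1, 483.4, 253.8 and 611.2 CPM, and was not above background in every library. Beside the type IV pair, the chains past 2-fold at 28 dpa were Col1a1 (-1.5), Col5a1 (-1.31), Col5a2 (-1.29), Col5a3 (-1.40), Col6a3 (-1.33), Col8a1 (-1.85), Col12a1 (-1.74) and Col15a1 (-1.78). Of these 10, Col1a1, Col5a1 and Col12a1 were not above background in every library. The X-linked Col4a5 was at 109, 40.3, 149 and 122 CPM, lower at 12 dpa alone (-1.41).

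Vascular endothelial-like cells (1357, 748, 520 and 583 cells) made a basement membrane set. Col4a1 was at 2636, 2658, 1866 and 1334 CPM and Col4a2 at 1654, 1656, 1116 and 896 CPM. Col15a1 was at 987, 916, 752 and 534 CPM and Col18a1 at 933, 1132, 580 and 458 CPM, with -1.02 for Col18a1 at 28 dpa. These 4 chains were lower in both later libraries than in both earlier ones. Col13a1 was at 99.8, 159, 52.1 and 71.3 CPM. Of 17 chains 0, 1 and 2 were at least 2-fold lower, beside 0.611%, 0.404% and 2.08% of 8674 genes. The lower ones were Col27a1 at 17 dpa and Col8a1 and Col18a1 at 28 dpa, of which Col18a1 alone was above background in every library, and Col27a1 averaged 9.95 CPM without its highest library. At the 3 times 7, 6 and 6 were higher, beside 0.415%, 0.542% and 1.25%. The median log2 ratio of the chains was 0.74, 0.51 and 0.54, while that of total collagen was 0.18, -0.37 and -0.67. The higher ones were Col1a1, Col1a2, Col3a1, Col5a1, Col6a1 and Col6a2 at each time and Col12a1 at 12 dpa, and of these 0 were above background in every library. Col12a1 reached 10 CPM only through the 12 dpa library, with a mean of 8.99 CPM without it. Col1a1 at 65.1, 298, 168 and 218 CPM was below the free-RNA level of 151.9, 1011, 245.8 and 362.5 CPM, and no expression is read from it. Lymphatic endothelial-like cells, with enough cells in the unamputated and 12 dpa libraries, had Col18a1 at 1184 and 986 CPM, Col4a1 at 725 and 637 CPM, Col4a2 at 376 and 384 CPM and Col23a1 at 202 and 161 CPM.

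Schwann-like cells (267, 240, 115 and 161 cells), the glia of peripheral nerve, kept most chains within 2-fold. Of 23 chains 0, 1 and 1 were at least 2-fold higher at 12, 17 and 28 dpa, beside 0.85%, 2.34% and 2.94% of 8943 genes. The lower ones were 0, 2 and 0, beside 0.939%, 3.33% and 5.89%. Col28a1 was at 1559, 1175, 1036 and 1386 CPM, and 89.7%, 85.8%, 75.2% and 86.5% of cells had a UMI of it after thinning to 2000 UMIs (98.1%, 94.6%, 92.2% and 89.4% unthinned), against at most 2.17% of neutrophil-like cells. Col3a1 was at 4059, 3129, 4586 and 5428 CPM, Col1a2 at 2681, 2365, 2903 and 2330 CPM, and Col5a2 at 3209, 2918, 1582 and 2216 CPM, with -1.02 at 17 dpa. Col8a1 was at 713, 679, 297 and 431 CPM, with -1.26 at 17 dpa. Col4a4 was higher at 17 and 28 dpa (1.19 and 1.18), at 11.7, 9.91, 28.1 and 27.9 CPM. Col20a1 at 21.1 to 28.0 CPM and Col9a3 at 11.9 to 19.5 CPM had their highest class means here.

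Basal keratinocyte-like cells (632, 297, 376 and 811 cells) carried the chains of the junction between epidermis and dermis. Col17a1 was at 1016, 937, 853 and 905 CPM, and after thinning 80.8%, 75.3%, 76.9% and 78.3% of cells had a UMI of it (95.7%, 94.3%, 96.5% and 97.2% unthinned), against at most 3.26% of neutrophil-like cells. Col4a5 was at 214, 168, 109 and 140 CPM and Col4a6 at 214, 137, 108 and 170 CPM. Col18a1 was at 149, 227, 148 and 111 CPM and Col7a1 at 107, 172, 94.0 and 76.2 CPM, both highest at 12 dpa. Col4a6 had 63.2% and Col4a5 44.6% of its UMIs in this class, and the looser filter on cells gave 27.8% for Col4a6. Suprabasal keratinocyte-like cells had the same junction chain at a lower level, with Col17a1 at 149, 111, 166 and 177 CPM, and their Col1a1 (48.6, 401, 158 and 83.7 CPM) and Col3a1 (48.0, 265, 237 and 134 CPM) were below the free-RNA level.

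**Figure D4:**
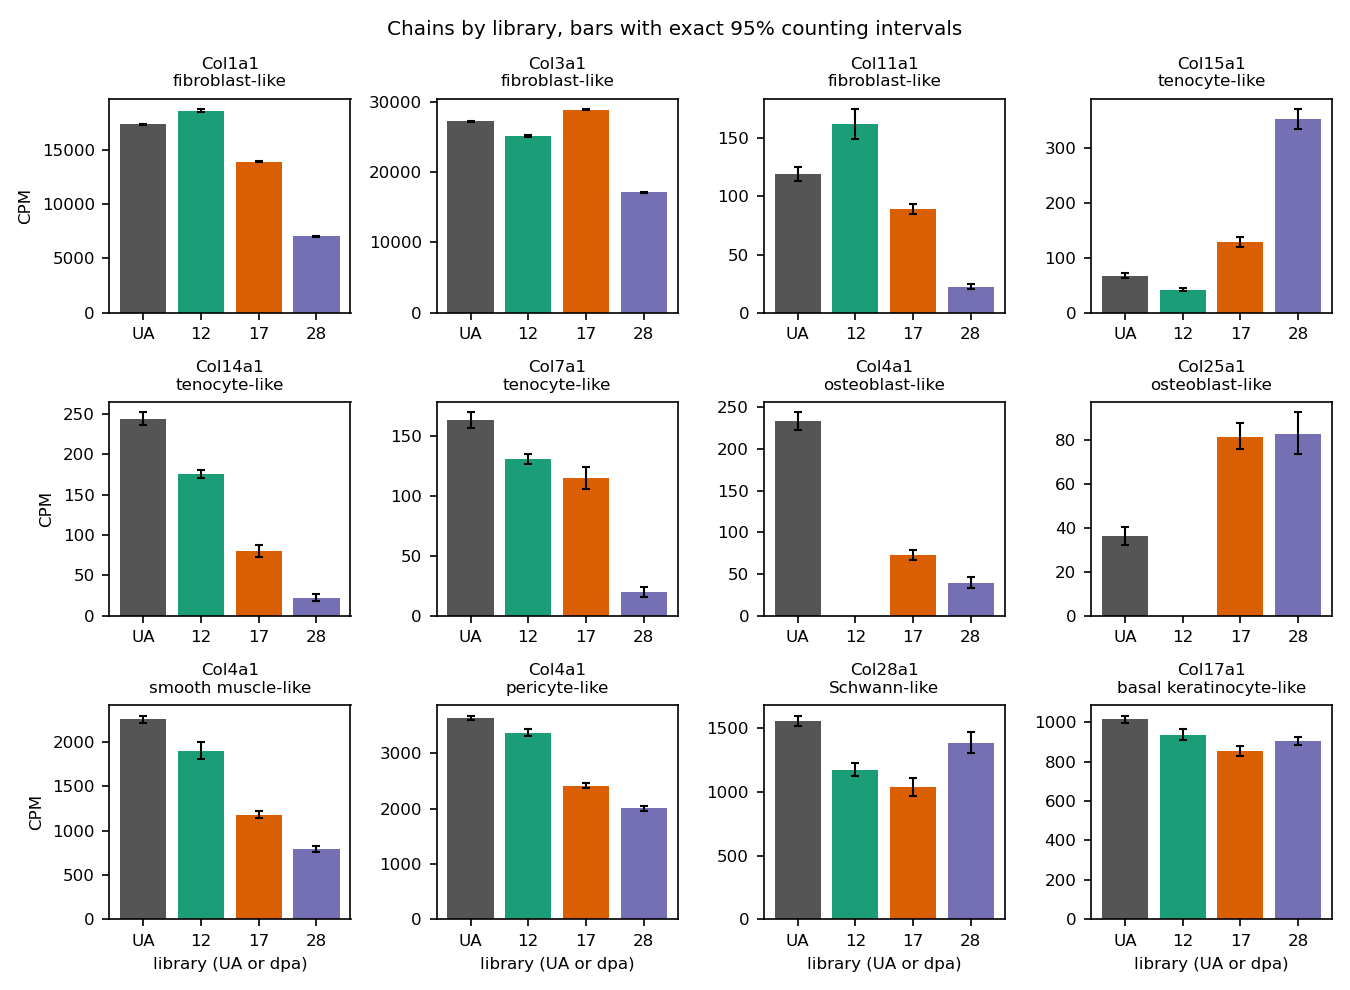
Level (CPM) of 12 chain and class pairs in the 4 libraries, UA being unamputated and numbers days post-amputation, with exact 95% counting intervals. Col1a1 and Col11a1 of fibroblast-like cells are lowest at 28 dpa, Col15a1 of tenocyte-like cells is highest there, and the osteoblast-like panels have no 12 dpa bar because 37 cells were too few.

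The ratio of chains that share a trimer was compared between libraries as UMI ratios, not as protein. Col1a1 to Col1a2, which combine 2 to 1 in type I collagen, stood at 1.24, 1.17, 1.01 and 0.874 in fibroblast-like cells and at 1.39, 1.21, 1.21 and 1.08 in tenocyte-like cells. In osteoblast-like cells it was 1.29, 1.21 and 1.13. The ratio was lowest at 28 dpa in each of the 3 classes, and under 1 there in fibroblast-like cells but not in the other two. Outside these 3 classes it was under 1 in each library in Schwann-like cells (0.849 to 0.943) and smooth muscle-like cells (0.617 to 0.887), and in pericyte-like cells at 17 dpa (0.912) and 28 dpa (0.917). Col1a1 was not above background in every library in these 3 classes, and in smooth muscle-like cells at 28 dpa it was at 370.0 CPM against a free-RNA level of 362.5 CPM, so no ratio of the cells' own RNA is read there. Col4a1 to Col4a2, whose start regions are printed above, stood at 1.59, 1.61, 1.67 and 1.49 in vascular endothelial-like cells and at 1.69, 1.76, 1.57 and 1.47 in pericyte-like cells. In fibroblast-like cells it was 1.32, 1.13, 1.15 and 1.09, and in tenocyte-like cells 1.28, 1.20, 1.05 and 0.764. Col8a1 to Col8a2 was 4.04, 4.30, 3.43 and 3.48 in tenocyte-like cells and 0.994, 0.790 and 0.875 in osteoblast-like cells. Col4a5 to Col4a6 was 0.997, 1.23, 1.00 and 0.820 in basal keratinocyte-like cells.

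Several chains were low, or had much of their RNA in unnamed clusters. Col6a4 had 55 UMIs in all, 50.9% of them in pericyte-like cells. Col6a5 had 251, of which 73.7% were in osteoblast-like cells and 66.1% in 9 cells. Col19a1 had 167, led by smooth muscle-like cells (29.9%), and Col26a1 154, led by cluster 26 (29.9%), where it was at 20.6, 5.60 and 0.544 CPM. Col4a3, a chain of specialised basement membranes, had 645 UMIs, of which 28.7% were in cluster 26, and Col4a4 2540, of which 34.8% were there. Col4a4 was at 175, 143 and 89.8 CPM and Col4a3 at 32.5, 30.8 and 20.1 CPM in that cluster. Col22a1 had 0 UMIs in cluster 17 in both earlier libraries, where the floor of 3 counts stands at 1.67 and 1.14 CPM, and 98.9 and 107 CPM at 17 and 28 dpa (117 and 66 UMIs). Col6a6 was at 18.9, 4.88, 7.08 and 2.53 CPM in fibroblast-like cells, under the minimum.

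Genes that make, cross-link, bind or break down collagen were read beside the chains, from a list of 55. In fibroblast-like cells 45 were compared, with 0 at least 2-fold higher and 2 lower at 12 dpa, 1 and 1 at 17 dpa, and 1 and 4 at 28 dpa. Over all genes 0.598% were higher and 4.58% lower at 12 dpa, 0.399% and 1.17% at 17 dpa, and 2.02% and 5.54% at 28 dpa. Their median log2 ratio was 0.01, 0.06 and -0.16, beside -0.20, -0.05 and -0.12 over all genes. Of 12 genes for prolyl hydroxylation and folding, 0 were past 2-fold at any time. Serpinh1, the collagen chaperone, was at 708, 893, 755 and 618 CPM and P4hb, a subunit of prolyl hydroxylase, at 400.1, 409, 425 and 410.3 CPM. Lox, which cross-links fibrils, was at 354, 383, 304 and 164 CPM, with -1.11 at 28 dpa. Fap, a protease of activated fibroblasts, was at 298, 167, 225 and 134 CPM, with -1.15. Tll1 and Adamts3, which cleave propeptides, had -2.63 and -2.85 at 28 dpa, but Tll1 reached the minimum only through the unamputated library, with 5.86 CPM on average without it. Pcolce2, an enhancer of propeptide cleavage, was at 88.7, 79.4, 269 and 581 CPM, with 1.59 at 17 dpa and 2.70 at 28 dpa. In tenocyte-like cells 0 of 47 were higher and 0 lower at 12 dpa, 1 and 1 at 17 dpa, and 4 and 6 at 28 dpa, Lox among the lower (629, 583, 621 and 232 CPM). Over all genes of these cells 0.287% were higher and 1.04% lower at 12 dpa, 1.41% and 1.96% at 17 dpa, and 3.52% and 6.46% at 28 dpa. Pcolce2, among the higher at 17 and 28 dpa, averaged 7.64 CPM without its highest library. In osteoblast-like cells 0 and 0 of 45 were past 2-fold at 17 dpa and 1 and 4 at 28 dpa, with Mmp14, a collagen-cleaving protease, at 1169, 834 and 465 CPM. Over all genes there 1.14% were higher and 1.61% lower at 17 dpa, and 2.13% and 4.57% at 28 dpa. Mmp9, among the lower at 28 dpa, averaged 6.12 CPM without its highest library.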

How the data were processed

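Whole-number UMI counts per gene and cell were deposited for 4 libraries, made by the authors with Cell Ranger 7.1.0 on mm10, per the submitters' processing notes. The annotation was not given in the sources used here. Barcodes below 500 genes or 1000 UMIs, or above 10% mitochondrial UMIs, were dropped, and 0.8% of barcodes per 1000 barcodes were removed as doublets by Scrublet rank (12.8%, 7.05%, 8.41% and 12.2%; its automatic threshold marked 2.16%, 2.55%, 2.70% and 4.06%). Libraries were clustered together in scanpy 1.11.5 (10000 UMIs per cell, 2000 variable genes, 30 components, 15 neighbours, Leiden resolution 1). Clustering did not use collagen, collagen-pathway or mitochondrial genes, nor the sex genes Ddx3y, Eif2s3y, Kdm5d, Uty, Xist and Tsix. Other sex-linked genes were not left out. To be named, a cluster had to show 3 or more markers of a class, each in 25% of its cells, with at least 1 among its 10 leading genes and no other class having more there. That rule was written after the clusters were seen, and different rules would name different cells.

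UMIs were summed per class and library. With 1 library per group there was no test, and the counts were set beside those of all genes compared. Poisson, Clopper-Pearson and conditional binomial intervals came from scipy 1.17.1. Of the steps, the log2 ratios alone were tested on simulated counts. Cell filters, clustering, naming and the background count were not tested that way. The members, lists and comparisons were chosen with earlier results of these data known. Chains named with values are the 8 highest in fibroblast-like cells, those past 2-fold there, up to 3 leading chains of other classes and those with over 50% of UMIs in 1 class. Further chains were named after their values were seen. Alternatives changed cell filters, doublets, clustering, naming, scaling, pseudocount, minimum and fold, and those on single clusters, finer tenocyte-like clusters, unnamed clusters and pooled stromal clusters were chosen after seeing the data.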

Additional observations from a re-analysis of the deposited data

Results flagged for a closer look

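Col15a1, Col25a1 and Col7a1 were at least 2-fold higher in 1 class or time and at least 2-fold lower in another, which was not tested. Col15a1 at 28 dpa had a log2 ratio of 2.37 in tenocyte-like cells, -1.32 in pericyte-like cells and -1.78 in smooth muscle-like cells. Col25a1 was higher in osteoblast-like cells, with 1.15 at 17 dpa and 1.17 at 28 dpa. It was lower in tenocyte-like cells, with -2.20 at 17 dpa and -1.36 at 28 dpa in the whole class, and in pericyte-like cells, with -1.52 at 28 dpa. Col7a1 in fibroblast-like cells was higher at 12 dpa, with 1.61, and lower at 17 dpa, with -1.19, and at 28 dpa, with -1.41. It was not above the free-RNA background there in every library. The same holds for Col15a1 in tenocyte-like and Col25a1 in pericyte-like cells. Col7a1 in fibroblast-like and Col25a1 in pericyte-like cells also reached the minimum of 10 CPM only through the library where each was highest, so a difference between libraries was built into their selection. In the finer tenocyte-like clusters Col25a1 was at -1.48 (led by Fmod and Matn4) and -1.08 (led by C1qtnf3 and Tnn) at 17 dpa, and at 0.50 in the first at 28 dpa. It reached the minimum in the first only through its 28 dpa library. The 12 dpa library also differed from the others in sex and had the highest free collagen RNA, at 3156 CPM, and their part was not tested. Relative to fibroblast-like, tenocyte-like and osteoblast-like cells that level was 4.12%, beside 4.15% at 28 dpa.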

How the results depend on the processing

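No paired analysis was possible because each group was 1 library. In fibroblast-like cells the total collagen log2 ratio at 28 dpa was below 0 under every alternative, from -1.03 (cluster 18 alone) to -0.354 (cluster 15 alone). At 12 and 17 dpa the sign changed between alternatives. In the order 12, 17, 28 dpa the ratio was -0.038, -0.0996 and -0.863 with the looser filter on cells, -0.228, 0.022 and -0.743 with the stricter filter, -0.021, -0.0495 and -0.799 when doublets stayed in, -0.11, 0.062 and -0.706 at Leiden resolution 2, and -0.018, -0.0906 and -0.860 with collagens kept in the clustering. It was -0.187, -0.353 and -0.995 with tenocyte-like cells pooled in, 0.023, -0.0614 and -0.857 from the mean of single-cell CPM, and 0.195, -0.0069 and -0.682 with median-ratio size factors. It was -0.062, -0.221 and -0.834 with unnamed clusters given their best class, -0.111, -0.350 and -0.912 with all stromal clusters pooled, and -0.104, -0.315 and -1.03 in cluster 18 alone. At 17 and 28 dpa it was -0.279 and -0.931 with each cell named singly, -0.102 and -0.901 relative to UMIs that are not collagens, and 0.322 and -0.354 in cluster 15 alone.

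Chains at least 2-fold lower at 28 dpa numbered 9 to 18 of those compared, beside 12, and 20 at 1.5-fold. At 17 dpa, beside 3, they were 6 with each cell named singly, 8 with tenocyte-like cells pooled in, 5 at a minimum of 2 CPM, 5 with no minimum, 8 at 1.5-fold and 5 with unnamed clusters given their best class. At 12 dpa, beside 1, they were 4 with the stricter filter, at Leiden resolution 2 and at 2 CPM, 3 at 1.5-fold and with all stromal clusters pooled, 6 with no minimum, 0 in cluster 18 alone and 2 with no doublets removed, singly named cells, tenocyte-like cells pooled in or unnamed clusters assigned. Chains at least 2-fold higher at 12 dpa, beside 1, were 0 with the stricter filter, at Leiden resolution 2, with singly named cells and with tenocyte-like cells pooled in, 2 with no minimum and 5 with unnamed clusters assigned. At 28 dpa, beside 0, they were 1 at 2 CPM and 2 with no minimum. Col7a1 at 12 dpa was at 0.27 with the stricter filter. At Leiden resolution 2 Col7a1 was still at 1.49 at 12 dpa and left the count through the minimum CPM, not through its fold. For most alternatives the share over all genes was not counted, and the number of chains compared could differ. These counts are therefore not set against such a share. Of the 17 chain and time calls, 16 kept their direction at Leiden resolution 2, where Col7a1 at 28 dpa was 0.21. In cluster 15 alone 13 of 15 did, with Col7a1 at 0.49 at 17 dpa and 0.060 at 28 dpa. Under each other alternative 17 of 17 kept it. Those still past 2-fold numbered 8 of 15 in cluster 15 alone, 13 of 17 at Leiden resolution 2, 11 of 17 with the stricter filter and 12 to 17 of 17 otherwise. In tenocyte-like cells, with each of the 2 clusters of Leiden resolution 2 taken alone, the total log2 ratio was -0.332, -0.359 and -0.686 in that led by Fmod and Matn4, and -0.445 and -0.527 at 12 and 17 dpa in that led by C1qtnf3 and Tnn. In the first, 5 chains were at least 2-fold lower at 28 dpa, beside 9, and 1 higher at 17 dpa, beside 0, and Col25a1 at 28 dpa was 0.504. In the second, 6 were lower at 17 dpa, beside 2. Tenocyte-like cells formed no cluster under the stricter filter, and 37 osteoblast-like cells at 12 dpa and 22 of cluster 15 were too few for a value. The share of Col2a1 in osteoblast-like cells ranged from 5.56% to 93.5% with the naming of cells, and that of Col28a1 in Schwann-like cells from 92.5% to 94.8%. Other shares whose lowest and highest values differed by over 1.5 times were those of Col17a1 (40.6% to 88.3%) and Col4a6 (27.8% to 76.9%) in basal keratinocyte-like cells, Col7a1 (22.9% to 54.6%), Col12a1 (39.4% to 64.9%) and Col24a1 (35.1% to 66.3%) in tenocyte-like cells, Col14a1 (56.6% to 86.8%) in fibroblast-like cells, and Col9a1 (26.7% to 61.8%) and Col9a2 (10.5% to 55.8%) in osteoblast-like cells.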
